A study of Mus musculus with 12 samples.

Results

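Described here are 10 histone genes of mouse liver, H3f3a, H3f3b, H2afz, H2afv, H2afx, H2afy, H2afj, H1f0, H1fx, and Hist1h1c, of 22456 genes with a deposited value. They encode histone variants made outside S phase and linker histones, and were chosen by symbol with their values in these data already known. Their levels and changes are therefore a description, and no p-value is given for them. The livers were those of 12 male BALB/cByJ mice aged 2 to 8 months, 3 per group. Fasted Lpin1+/+ and fasted Lpin1-/- mice were killed after 16 hours without food, and refed Lpin1+/+ and refed Lpin1-/- mice after the same fast and 5 hours of chow, so feeding state and time of day cannot be told apart. Lpin1-/- mice were homozygous for the fatty liver dystrophy (fld) allele, which lacks lipin 1 in the whole body, and the Lpin1+/+ mice were their wild-type littermates. The authors deposited RPKM per gene (read counts divided by transcript length in kilobases and by the mapped reads of the library in units of 1 M) and inclusion and skipping counts per exon event.

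Nucleosomes wrap DNA around 2 copies each of histones H2A, H2B, H3, and H4. Most histone genes are transcribed in S phase and give mRNAs that end in a stem-loop in place of a poly(A) tail. Variant genes such as those of H3.3 and H2A.Z have introns and polyadenylated mRNAs, are expressed throughout the cell cycle, and supply histones to cells that rarely divide, such as adult hepatocytes. Chaperone complexes place them at defined sites: HIRA and DAXX-ATRX deposit H3.3, and SRCAP and p400 exchange H2A.Z. Linker histones of the H1 family bind the DNA that enters and leaves the nucleosome and favor chromatin compaction.

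Library labels, depth, and tissue were checked first. Lpin1 was at 0.0368 to 0.0597 RPKM in fasted Lpin1-/- libraries and at 0.726 to 22.0 RPKM in fasted Lpin1+/+ libraries. Refed Lpin1 levels were 0.00573 to 0.0238 RPKM in Lpin1-/- and 0.784 to 2.92 RPKM in Lpin1+/+, so the genotype labels held in all 12 libraries. The study planned about 150 M reads per sample, and event tables summed to 336.64 to 662.62 M inclusion counts per library, where a read can count in several events. Hepatocyte markers (Alb, Apoa1, Ttr, Cps1, Hnf4a, and Fabp1) summed to at least 35782 RPKM in every library. Several libraries stood apart within their groups. Over 633 genes whose longest transcript is under 1000 bases, the median deviation of fasted Lpin1-/- replicate 1 from its group mean was 0.40 on the log2 scale, against -0.14 over 10550 longer genes. Fasted Lpin1+/+ replicate 2 deviated the same way (0.29 and -0.22), and fasted Lpin1+/+ replicate 1 (-0.47 and 0.18) and refed Lpin1-/- replicate 1 (-0.36 and 0.05) the other way. By correlation with its group, refed Lpin1+/+ replicate 2 stood farthest apart (r = 0.932 and 0.934 across genes, against 0.987 between the other 2). Several results below are given with and without these libraries. Whole tissue was sequenced, so fewer cells of a type and less RNA per cell cannot be told apart.

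In fasted Lpin1+/+ liver, the levels of the 10 genes covered a wide range. The H3.3 genes were highest, with H3f3a at 233 ± 75.8 RPKM (SD, n = 3) and H3f3b at 207 ± 13.6 RPKM. They were followed by H1f0 (117 ± 11.4), H2afj (83.8 ± 21.6), H2afv (68.9 ± 16.9), H2afy (35.2 ± 10.2), Hist1h1c (29.5 ± 0.972), H2afz (17.3 ± 2.0), H2afx (7.62 ± 0.460), and H1fx (0.501 ± 0.499). Ranges of neighbors in this order overlapped between H3f3a and H3f3b, between H2afj and H2afv, and between H2afy and Hist1h1c. Read within a library, H2afj was above H2afv in all 3, whereas the order of H3f3a and H3f3b, and that of H2afy and Hist1h1c, differed between libraries.

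**Figure D1:**
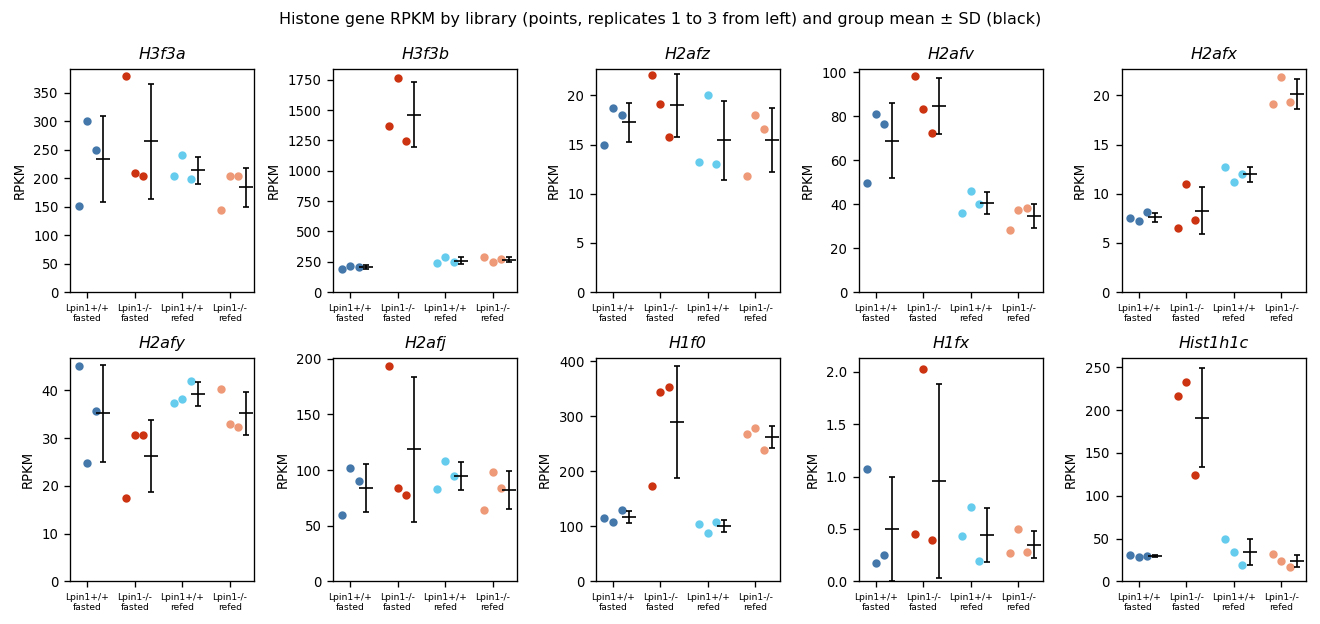
RPKM of the 10 histone genes (y axis, linear, a separate scale in each panel) in 12 liver libraries, grouped by genotype and feeding state (x axis). Points are libraries in replicate order and black marks are group means ± SD (n = 3). H3f3b and Hist1h1c were high in the 3 fasted Lpin1-/- libraries, H1f0 was high in all 6 Lpin1-/- libraries, and H2afx was highest in refed Lpin1-/- libraries.

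Counts of genes past the threshold (adjusted p under 0.05 by limma over 11507 genes) differed by comparison. Between genotypes in fasted liver, 3 of the 10 histone genes passed, all higher in Lpin1-/-, where 18.8% of all genes tested passed. By direction, 5.63% of all genes were higher in Lpin1-/- and 13.2% lower. In refed liver 2 passed, both higher in Lpin1-/-, beside 6.67% of all genes (2.6% higher and 4.07% lower). With refeeding in Lpin1-/- liver 4 passed, 1 higher and 3 lower, beside 20.7% of all genes (17.8% higher and 2.92% lower). With refeeding in Lpin1+/+ liver 0 passed by limma, beside 1.72% of all genes (1.52% higher and 0.2% lower). For the difference between genotypes in the response to refeeding (the interaction), 2 passed, both lower, beside 1.28% of all genes (0.791% higher and 0.487% lower). Groups without overlap of their libraries were counted too. Between fasted genotypes this held for 3 of the 10 genes, all higher in Lpin1-/-, beside 32.9% of all genes (10.7% higher and 22.2% lower). Between refed genotypes it held for 2, both higher in Lpin1-/-, beside 33.9% of all genes (14.8% higher and 19.1% lower). With refeeding it held for 5 genes in Lpin1-/- liver, 2 higher and 3 lower, beside 46.8% of all genes (37.5% higher and 9.26% lower). In Lpin1+/+ liver it held for 3, 2 higher and 1 lower, beside 18.1% of all genes (14.6% higher and 3.46% lower). Since these values chose the genes, the counts are read no further. The median log2 fold change of the 10 genes was 0.32 between fasted genotypes (-0.14 over all genes), -0.12 between refed genotypes (-0.068), -0.43 for refeeding in Lpin1-/- (0.25), and 0.04 for refeeding in Lpin1+/+ liver (0.19).

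**Figure D2:**
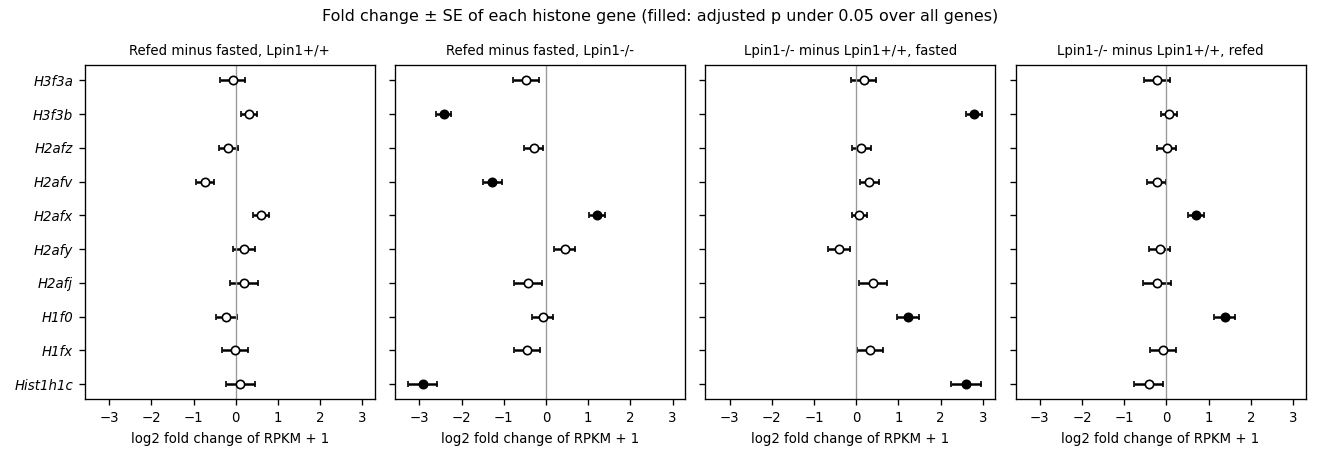
Fold change of each histone gene in the 4 comparisons (x axis, log2 of RPKM + 1, difference of group means; bars, SE of the limma fit over 12 libraries, with 3 libraries in each group). Filled points passed the threshold of 0.05 on the adjusted p over all genes, and H3f3b and Hist1h1c lay farthest from 0 in both comparisons that involve fasted Lpin1-/- liver.

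H3f3a and H3f3b are separate genes that encode the same protein, H3.3, the replacement form of histone H3 found at active genes, enhancers, and telomeres. They behaved differently here. H3f3b was at 192, 219, and 209 RPKM in fasted Lpin1+/+ liver and at 1372, 1761, and 1246 RPKM in fasted Lpin1-/- liver (replicates 1 to 3). In refed liver it was at 239, 292, and 247 RPKM in Lpin1+/+ and at 288, 245.8, and 272 RPKM in Lpin1-/-. The fasted groups stood far apart, and the refed groups overlapped. The difference between genotypes was 2.80 ± 0.19 (log2, SE) in fasted liver and 0.05 ± 0.19 in refed liver. Refeeding changed H3f3b by -2.43 ± 0.19 in Lpin1-/- and by 0.32 ± 0.19 in Lpin1+/+ liver, so the responses differed by -2.75 ± 0.26. By absolute fold change between fasted genotypes, H3f3b ranked 75th of 11507 genes.

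H3f3a was at 151, 299.9, and 249.6 RPKM in fasted Lpin1+/+ and at 380.3, 209, and 204 RPKM in fasted Lpin1-/- liver. The groups overlapped, and the high value was in fasted Lpin1-/- replicate 1, the library in which short transcripts ran high. The difference was 0.17 ± 0.30 with that library and -0.12 without it. Leaving out fasted Lpin1+/+ replicate 1 in its place gave -0.11, and leaving out fasted Lpin1+/+ replicate 2 gave 0.38. Refed values were 203, 241, and 198 RPKM in Lpin1+/+ and 145, 204, and 203.7 RPKM in Lpin1-/-, which also overlapped (difference -0.23 ± 0.30).

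Since both genes make H3.3, their RPKM were summed. In fasted mice the sum was 440.4 ± 89.4 RPKM for Lpin1+/+ and 1724 ± 261 RPKM for Lpin1-/- (SD, n = 3). In refed mice it was 473 ± 51.5 RPKM for Lpin1+/+ and 453 ± 21.3 RPKM for Lpin1-/-. H3f3b supplied 42.3% to 56.1% of the fasted sum in Lpin1+/+ and 78.3% to 89.4% in Lpin1-/- libraries. After refeeding it supplied 54.0% to 55.6% in Lpin1+/+ and 54.7% to 66.5% in Lpin1-/- libraries. The pair was near balance in 3 of the groups and mostly H3f3b in fasted Lpin1-/- liver.

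Exon event counts from the same libraries allowed a second comparison within each library. Like the percent above, it does not depend on the scaling of libraries. Both come from the same sequenced libraries, so it is not an independent check. Counts per base of the H3f3b exon at chr11:116023882-116024019 (GRCm38, minus strand) with its junctions were divided by those of the H3f3a splice junction from chr1:180810270 to 180811799, both in the event tables of each feeding state. This ratio came to 1.03, 0.614, and 0.688 for fasted Lpin1+/+ and to 3.01, 6.63, and 4.87 for fasted Lpin1-/- mice, in the order in which the tables list the libraries. In refed libraries it was 0.931, 0.994, and 0.960 in Lpin1+/+ and 1.52, 0.968, and 1.01 in Lpin1-/-. Fasted genotypes were again far apart and refed genotypes overlapped.

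**Figure D3:**
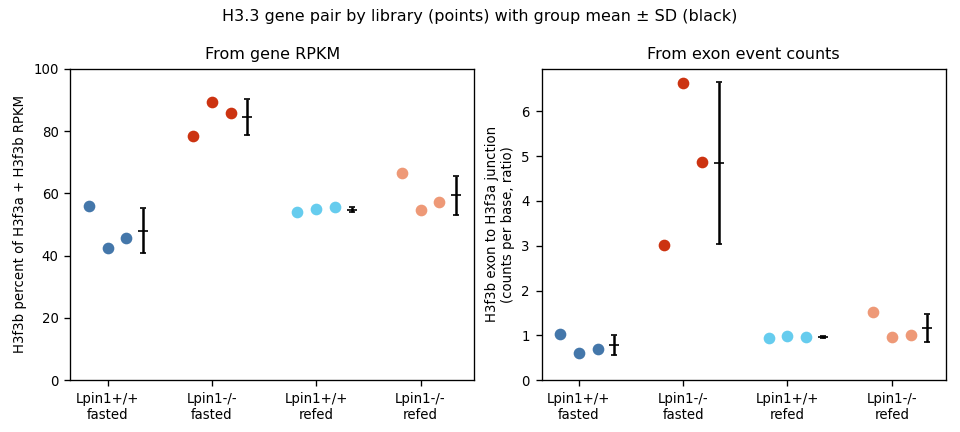
Left, H3f3b as a percent of H3f3a plus H3f3b RPKM in each library (replicate order). Right, ratio of H3f3b exon counts per base to H3f3a junction counts per base in each library (order of the event tables). Black marks are means ± SD (n = 3), and on both scales the 3 fasted Lpin1-/- libraries lie above the other 9.

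Reads of the pair can be told apart. The longest identical run between 1 GENCODE transcript of each gene was 23 bases, shorter than a read of 69 bases. Of the 69-base windows of the H3f3a transcript, 27.8% also occur in transcripts of other annotated genes, among them H3f3c and pseudogenes, so part of the H3f3a level is uncertain. The corresponding share was 4.99% for H3f3b, with 3 predicted genes.

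The start regions of the pair differ in sequence. The 250 bases upstream of the RefSeq start of each gene (GRCm38.p6, written in the direction of transcription) are shown because H3f3b changed and H3f3a, for the same protein, did not pass the threshold. Hist1h1c is shown with them because it had the RPKM pattern closest to H3f3b among the 10 genes. For both H3.3 genes the RefSeq start lies inside the longer GENCODE gene. Capitals mark 5 motifs on either strand, which are the CCAAT box with the letters CCAAT, the TATA box with TATAAA, the GC box with GGGCGG, most of the octamer with TTTGCAT, and the H1 box with AAACACA.
H3f3b, chr11:116024505-116024754, minus strand: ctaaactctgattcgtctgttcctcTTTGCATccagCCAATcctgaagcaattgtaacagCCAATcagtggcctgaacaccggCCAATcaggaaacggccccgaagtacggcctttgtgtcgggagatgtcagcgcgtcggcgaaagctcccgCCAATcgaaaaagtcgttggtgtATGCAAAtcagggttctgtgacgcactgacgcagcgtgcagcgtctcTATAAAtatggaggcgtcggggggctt
H3f3a, chr1:180813606-180813855, minus strand: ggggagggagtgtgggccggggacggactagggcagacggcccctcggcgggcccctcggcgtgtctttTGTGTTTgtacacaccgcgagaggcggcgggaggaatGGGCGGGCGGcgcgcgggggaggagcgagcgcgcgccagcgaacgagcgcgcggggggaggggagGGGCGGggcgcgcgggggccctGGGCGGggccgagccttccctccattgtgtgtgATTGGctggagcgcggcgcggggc
Hist1h1c, chr13:23738557-23738806, plus strand: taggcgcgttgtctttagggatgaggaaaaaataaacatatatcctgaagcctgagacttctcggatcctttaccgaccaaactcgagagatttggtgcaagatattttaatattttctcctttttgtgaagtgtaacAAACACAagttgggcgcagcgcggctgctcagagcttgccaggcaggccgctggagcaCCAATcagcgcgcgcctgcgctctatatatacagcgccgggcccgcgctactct
H3f3b held 4 matches to CCAAT, 2 to TTTGCAT, and 1 to TATAAA, and none to GGGCGG. H3f3a held 4 matches to GGGCGG, of which neighbors overlap, 1 to CCAAT, and 1 to AAACACA. Hist1h1c held 1 match to CCAAT and 1 to AAACACA. A promoter sequence was matched for 9 of the 10 genes. Among them, H2afv also held 4 CCAAT matches, H2afj 3, and H2afz 2, while H2afy, H1f0, and H1fx held 0 and H3f3b was the only one with TATAAA or TTTGCAT. Over 32851 promoter windows of the same length, the share with a match was 33.8% for the CCAAT box, 12.4% for the TATA box, 32.7% for the GC box, 4.12% for the octamer letters, and 6.25% for the H1 box. These are matches of letters in a window and say nothing of binding.

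Linker histones came next. Hist1h1c encodes H1.2, a somatic linker histone whose gene lies in the large histone cluster on chromosome 13 (chr13:23738808-23740367, plus strand). It was at 30.4, 28.5, and 29.7 RPKM in fasted Lpin1+/+ and at 216, 232, and 125 RPKM in fasted Lpin1-/- liver. All 3 fasted Lpin1-/- libraries lay far above the fasted Lpin1+/+ libraries, which were close to each other. In refed liver it was at 49.9, 34.2, and 18.7 RPKM in Lpin1+/+ and at 31.4, 23.9, and 17.3 RPKM in Lpin1-/-, with overlap. The difference between fasted genotypes was 2.60 ± 0.34 (log2, SE), and refeeding changed Hist1h1c by -2.92 ± 0.34 in Lpin1-/- and by 0.10 ± 0.34 in Lpin1+/+ liver. The responses to refeeding differed by -3.02 ± 0.49, and this value no longer passed the threshold without fasted Lpin1+/+ replicate 3 (-3.03), fasted Lpin1-/- replicate 2 (-2.86), refed Lpin1-/- replicate 2 (-3.03), or refed Lpin1-/- replicate 3 (-2.81). Of the 69-base windows of the Hist1h1c transcript, 7.04% also occur in transcripts of Hist1h1d or Hist1h1e, other linker histones of the cluster.

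H1f0 encodes H1.0, the linker histone that accumulates in differentiated and non-dividing cells (chr15:79028450-79030504, plus strand). It was at 114, 107, and 129 RPKM in fasted Lpin1+/+ and at 172, 343, and 353 RPKM in fasted Lpin1-/- liver. In refed liver it was at 104, 87.9, and 109 RPKM in Lpin1+/+ and at 267, 278, and 239.6 RPKM in Lpin1-/-. All 6 Lpin1-/- libraries lay above all 6 Lpin1+/+ libraries, whatever the feeding state. The difference between genotypes was 1.23 ± 0.25 in fasted and 1.38 ± 0.25 in refed liver. The lowest of the fasted Lpin1-/- values was in replicate 1, and without that library the fasted difference was 1.57. The refed difference was 1.29 without refed Lpin1+/+ replicate 2 and 1.36 without refed Lpin1-/- replicate 1. Refeeding changed H1f0 by -0.08 ± 0.25 in Lpin1-/- and by -0.22 ± 0.25 in Lpin1+/+ liver, and the responses differed by 0.15 ± 0.36, which did not pass the threshold. No 69-base window of the H1f0 transcript occurs in another annotated gene.

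H1fx encodes H1.10 (also H1X), a linker histone gene outside the clusters. It was the lowest of the 10 genes, with 0.173 to 1.08 RPKM in fasted Lpin1+/+, 0.395 to 2.03 in fasted Lpin1-/-, 0.196 to 0.708 in refed Lpin1+/+, and 0.268 to 0.497 in refed Lpin1-/- liver. The 4 groups overlapped. Without fasted Lpin1-/- replicate 2 (2.03 RPKM), H1fx fell below the minimum of 0.5 RPKM and was not tested.

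The 3 linker histone genes summed to 147 ± 11.8 RPKM in fasted Lpin1+/+ and 482 ± 94.4 RPKM in fasted Lpin1-/- liver (SD, n = 3). The refed sums were 135 ± 17.1 RPKM in Lpin1+/+ and 286 ± 25.3 RPKM in Lpin1-/-. Hist1h1c gave 18.6% to 21.0% of the sum in fasted Lpin1+/+ and 26.1% to 55.6% in fasted Lpin1-/- libraries. In refed Lpin1-/- libraries it gave 6.72% to 10.5%, below the 14.7% to 32.3% of refed Lpin1+/+ libraries. The excess of linker histone RNA in Lpin1-/- liver was thus shared by H1f0 and Hist1h1c in the fasted state. In the refed state it lay in H1f0, which averaged 262 RPKM in Lpin1-/- and 100 RPKM in Lpin1+/+ liver. Hist1h1c averaged 24.2 and 34.3 RPKM there, with overlap.

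**Figure D4:**
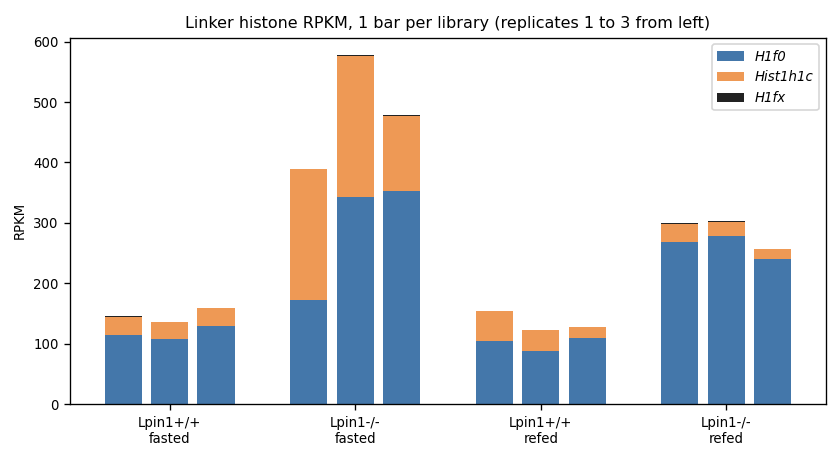
Stacked RPKM of the linker histone genes H1f0, Hist1h1c, and H1fx (y axis, linear from 0), with 1 bar per library in replicate order and the 4 groups along the x axis. Bars of fasted Lpin1-/- libraries reach 389 to 578 RPKM and those of refed Lpin1-/- libraries 257 to 303 RPKM, above the 123 to 159 RPKM of Lpin1+/+ libraries, and the Hist1h1c segment is tallest in the fasted Lpin1-/- bars.

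Among H2A variants, H2afz and H2afv encode H2A.Z.1 and H2A.Z.2, near-identical proteins from separate genes that mark promoters and enhancers. H2afv was the more abundant of the pair, with 67.3% to 82.1% of their summed RPKM in every library. H2afv was at 49.6, 80.8, and 76.4 RPKM in fasted Lpin1+/+ and at 98.0, 83.4, and 72.4 RPKM in fasted Lpin1-/- liver. After refeeding it was at 35.9, 45.9, and 40.2 RPKM in Lpin1+/+ and at 28.4, 37.2, and 38.1 RPKM in Lpin1-/-. Each refed group lay below the fasted group of its genotype, and genotypes overlapped in both states. The refeeding change was -1.27 ± 0.22 in Lpin1-/- and passed the threshold. In Lpin1+/+ it was -0.72 ± 0.22 and did not, but passed without fasted Lpin1+/+ replicate 1 (-0.94). The responses differed by -0.55 ± 0.31, which did not pass. H2afz ranged from 11.8 to 22.1 RPKM over all 12 libraries, and its groups overlapped in every comparison. Of the 69-base windows of the H2afz transcript, 32.0% occur in 4 other annotated genes, all named as predicted genes, and none of those of H2afv did.

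H2afx encodes H2A.X, the variant that is phosphorylated around DNA double-strand breaks. It was at 7.57, 7.19, and 8.10 RPKM in fasted Lpin1+/+ and at 6.51, 11.04, and 7.32 RPKM in fasted Lpin1-/- liver. After refeeding it was at 12.7, 11.2, and 12.0 RPKM in Lpin1+/+ and at 19.2, 21.9, and 19.4 RPKM in Lpin1-/-. Fasted genotypes overlapped, and the refed groups did not overlap each other or the fasted group of their genotype. The refeeding change was 1.21 ± 0.19 in Lpin1-/- and 0.59 ± 0.19 in Lpin1+/+, and the responses differed by 0.62 ± 0.27, which did not pass. The difference between refed genotypes was 0.70 ± 0.19, and it passed the threshold narrowly. With the replicate number as a block, its size was the same and it did not pass, which left 1 of the 10 genes (H1f0) in that comparison. It also did not pass without fasted Lpin1+/+ replicate 2 or 3 or fasted Lpin1-/- replicate 3 (0.70 each). The same held without any 1 of the 6 refed libraries, with 0.74, 0.66, and 0.70 without Lpin1+/+ replicates 1, 2, and 3 and 0.73, 0.64, and 0.73 without Lpin1-/- replicates 1, 2, and 3. Of the 69-base windows of the H2afx transcript, 3.72% also occur in other H2A genes or predicted genes.

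H2afj encodes H2A.J, an H2A variant of mammals with a polyadenylated transcript. It was at 59.7, 101, and 90.4 RPKM in fasted Lpin1+/+ and at 194, 83.99, and 77.9 RPKM in fasted Lpin1-/- liver. The high value was that of replicate 1, and the groups overlapped. That library is also the one in which genes under 1000 bases ran high, though the H2afj transcript is 1831 bases long. Like those genes, H2afj was highest of its group in fasted Lpin1+/+ replicate 2. It was lowest of its group in fasted Lpin1+/+ replicate 1 and refed Lpin1-/- replicate 1, where those genes ran low. Whether the length pattern bears on H2afj was not tested. The difference between fasted genotypes was 0.40 ± 0.33 with fasted Lpin1-/- replicate 1 and -0.02 without it. Refed values were 82.8 to 108 RPKM in Lpin1+/+ and 63.9 to 98.0 RPKM in Lpin1-/- liver.

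H2afy encodes macroH2A1, an H2A variant that carries a large globular macro domain. Its RPKM was 45.1, 24.7, and 35.6 in fasted Lpin1+/+ and 17.5, 30.6, and 30.7 in fasted Lpin1-/- liver, with overlap and a difference of -0.41 ± 0.25. The difference was -0.15 without fasted Lpin1-/- replicate 1. It was -0.21 without fasted Lpin1+/+ replicate 1 and -0.64 without fasted Lpin1+/+ replicate 2. In refed liver it was at 37.4, 38.3, and 42.0 RPKM in Lpin1+/+ and at 40.4, 32.9, and 32.3 RPKM in Lpin1-/-, again with overlap.

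H2afy is also the histone gene with a known choice of exon. A pair of coding exons is used in turn, 1 for macroH2A1.1, whose macro domain binds ADP-ribose, and 1 for macroH2A1.2, which does not. Both are exon 6 of 9 in their GENCODE M21 transcripts, on the minus strand of chromosome 13. They are shown with their longest shared run (10 bases) in capitals, since the counts below turn on telling them apart.
macroH2A1.1 exon (91 bases), chr13:56088252-56088342: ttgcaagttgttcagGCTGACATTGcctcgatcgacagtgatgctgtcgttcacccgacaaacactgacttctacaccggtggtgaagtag
macroH2A1.2 exon (100 bases), chr13:56089758-56089857: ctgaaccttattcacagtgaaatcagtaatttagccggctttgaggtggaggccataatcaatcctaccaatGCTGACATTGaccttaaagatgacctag

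Inclusion counts of the pair, each divided by its inclusion length, gave the percent of the macroH2A1.1 exon. This measure was chosen after the event counts were seen, and it is given without a test. In fasted liver the macroH2A1.1 exon made up 37.4%, 45.2%, and 37.6% in Lpin1+/+ and 40.9%, 16.7%, and 21.5% in Lpin1-/- libraries, in the order of the event table. One Lpin1-/- library lay among the Lpin1+/+ libraries and the other 2 lay below them. That library, listed first, had the highest H3f3a junction counts of its group (4031). Fasted Lpin1-/- replicate 1, in which short transcripts ran high, had the highest H3f3a level of its group (380.3 RPKM). It may be the same library, but the event tables give no replicate numbers. In refed liver it made up 35.4%, 51.8%, and 37.9% in Lpin1+/+ and 26.6%, 24.6%, and 23.5% in Lpin1-/- libraries, with no overlap. Mean differences (Lpin1-/- minus Lpin1+/+) were -13.7 percentage points in fasted and -16.8 in refed liver. Leaving out 1 library at a time moved the fasted value between -21.0 and -8.88 and the refed value between -19.9 and -11.7 points. The ends of the fasted range came without the Lpin1-/- library listed first (-21.0) and second (-8.88), and the smallest refed value came without the Lpin1+/+ library listed second (-11.7). Counts behind these values were 132 to 552 for the macroH2A1.1 exon and 263 to 937 for the macroH2A1.2 exon per library. The 95% Wilson intervals reached at most 4.71 points from the value and cover counting error only. Reads that skipped each exon between its outer neighbors numbered 0 to 3 per library.

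**Figure D5:**
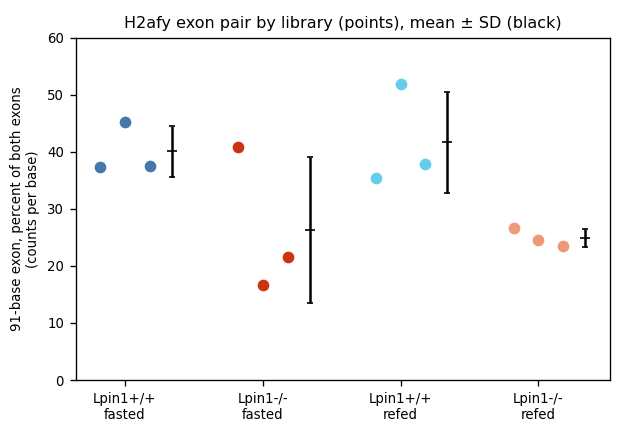
Percent of the 91-base macroH2A1.1 exon among both exons of the H2afy pair (y axis, counts per base) in each of 12 libraries (points, order of the event tables) by group (x axis), with means ± SD (black, n = 3). The 3 refed Lpin1-/- libraries lie at 23.5% to 26.6%, below the refed Lpin1+/+ libraries, and the 3 fasted Lpin1-/- libraries are spread from 16.7% to 40.9%.

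In the tables of exon events, 47 of 84592 fasted events and 26 of 75694 refed events belonged to the 10 genes. They fell in H3f3a (13 and 5), H3f3b (11 and 5), H2afv (10 and 7), and H2afy (13 and 9), and the tables list none for the other 6 genes. A total of 45 fasted events and 26 refed events had at least 10 counts in every library and were tested. Of these, 2 fasted events passed the threshold, beside 11.3% of all events tested, and 0 refed events passed, beside 0.97%.

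Both fasted events that passed concern rare forms of 1 H3f3a exon and share their skipping junction, so they are not independent. The longer form (chr1:180810365-180810422, 58 bases) had 0 inclusion counts in all 3 fasted Lpin1+/+ libraries, with 1794, 3343, and 2853 skipping counts, which allows up to 0.167%, 0.0897%, and 0.105% of counts. Fasted Lpin1-/- libraries had 27, 19, and 1 inclusion counts with 4031, 2534, and 2441 skipping counts. As shares of counts these were 0.665% (95% Wilson interval 0.458 to 0.966), 0.744% (0.477 to 1.16), and 0.0410% (0.00723 to 0.232). The difference in the log2 ratio of inclusion to skipping was 4.04 ± 1.06 (SE). For the shorter form (chr1:180810370-180810422, 53 bases) the Lpin1-/- libraries had 12, 16, and 1 counts, and the difference was 3.58 ± 1.00. Most H3f3a RNA therefore skipped this exon in every library. When events also needed 5 counts of the less common form on average, 1 of the 2 passed. Without any 1 of the Lpin1+/+ libraries, or without the Lpin1-/- library listed second, 0 events of the 10 genes passed by limma, whereas 6 passed without the Lpin1-/- library listed first and 5 without the one listed last.

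In H2afv, H3f3b, and H2afy, the event with the most counts of its less common form did not pass the threshold in either state. In H2afv it was the 114-base exon at chr11:6433724-6433837, included at 95.8% to 95.9% in fasted Lpin1+/+ and 93.9% to 95.7% in fasted Lpin1-/- libraries. After refeeding its inclusion spanned 92.7% to 97.6% for Lpin1+/+ and 89.2% to 96.4% for Lpin1-/- libraries. In H3f3b, the 138-base exon used for the ratio above was included to at least 99.8% in all 12 libraries. In fasted H2afy it was an extended form of the macroH2A1.1 exon (chr13:56088252-56088435), at 17.1% to 23.4% in Lpin1+/+ and 9.18% to 19.0% in Lpin1-/- libraries, with a difference in the log2 ratio of -0.85 ± 0.65. In refed H2afy and H3f3a, the events under this rule were rare exons, each included at under 1% in every library.

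Chaperone genes that handle these histones were read from lists written by hand, with adjusted p-values from limma over all 11507 genes. Npm3, a nucleoplasmin of the nucleolus, had the clearest pattern. It was at 116 RPKM in fasted Lpin1-/- and 24.5 RPKM in fasted Lpin1+/+ liver (log2 2.23 ± 0.25, adjusted p = 0.000399 by limma), and it fell by 1.85 ± 0.25 with refeeding in Lpin1-/- liver (adjusted p = 0.00102 by limma). The responses of the genotypes differed by -2.32 ± 0.35 (adjusted p = 0.0136 by limma). Of the 14 chaperones in its list, it was the only one past the threshold between fasted genotypes, where 5.63% of all genes were higher (list median -0.22, all genes -0.14). With refeeding in Lpin1-/- liver 4 of the 14 rose and 1 fell, where 17.8% of all genes rose and 2.92% fell (list median 0.44, all genes 0.25). Among those that rose was Set, an H3-H4 and H1 chaperone (0.91 ± 0.22, adjusted p = 0.0139 by limma). Hjurp, the chaperone of centromeric CENP-A, rose as well (1.17 ± 0.28, adjusted p = 0.0139 by limma), though not without refed Lpin1-/- replicate 1.

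Of 9 genes for H3.3 deposition, such as Hira, Daxx, and Atrx, 1 was past the threshold between fasted genotypes, where 5.63% of all genes were higher (list median 0.08, all genes -0.14), and 0 by limma in the other comparisons (0 to 2 at an unadjusted p under 0.05). It was Asf1a, which passes H3-H4 dimers to the HIRA complex, at 19.3 RPKM in Lpin1-/- and 12.3 RPKM in Lpin1+/+ liver (0.61 ± 0.20, adjusted p = 0.0492 by limma). This call was lost in 15 of 18 alternatives, including the loss of any library other than fasted Lpin1+/+ replicate 2. Of 16 genes for H2A.Z exchange, 2 rose with refeeding in Lpin1-/- liver, where 17.8% of all genes rose (list median 0.20, all genes 0.25). Both encode ATPases of remodeling complexes. Ruvbl2 rose by 1.14 ± 0.20 (adjusted p = 0.00349 by limma). Ruvbl1 rose by 0.59 ± 0.19 (adjusted p = 0.0424 by limma) and lost its call in 10 of 18 alternatives, among them median-ratio scaling and the absence of any 1 fasted or refed Lpin1-/- library.

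Of 11 tested genes for replication-coupled deposition and histone mRNA processing, 2 were higher in fasted Lpin1-/- than in fasted Lpin1+/+ liver, where 5.63% of all genes were higher (list median 0.12, all genes -0.14). Chaf1b, a subunit of chromatin assembly factor 1, was at 8.22 and 0.70 RPKM (2.36 ± 0.39, adjusted p = 0.00257 by limma). Lsm11, of the U7 snRNP that trims histone mRNA ends, was at 2.06 and 1.12 RPKM (0.52 ± 0.16, adjusted p = 0.0452 by limma), a call lost in 14 of 17 alternatives. Between refed genotypes Chaf1b (1.69 ± 0.39, adjusted p = 0.0292 by limma) and Nasp, a chaperone of H3-H4 (0.67 ± 0.17, adjusted p = 0.0408 by limma), were higher in Lpin1-/- liver, as were 2.6% of all genes. With the replicate block these became adjusted p = 0.0608 and 0.0786 by limma. Both calls were also lost without any 1 refed Lpin1-/- library. Nasp rose by 0.80 ± 0.17 with refeeding in Lpin1-/- liver (adjusted p = 0.00824 by limma).

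Genes of cell division were set beside the histone genes. Of 15 tested, 0 passed between fasted genotypes by limma (1 at an unadjusted p under 0.05, list median 0.03, all genes -0.14), and the summed RPKM of all 20 overlapped there, at 51.7 to 95.1 in Lpin1+/+ and 58.0 to 79.4 in Lpin1-/-. Tk1, thymidine kinase, fell by 1.30 ± 0.27 with refeeding in Lpin1-/- liver (adjusted p = 0.00788 by limma). It was lower in refed Lpin1-/- than in refed Lpin1+/+ liver (-1.16 ± 0.27, adjusted p = 0.0293 by limma), with adjusted p = 0.0543 by limma under the replicate block and no call without any 1 refed Lpin1-/- library.

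Other histone genes in the table were mostly low. Of 74, 61 had a mean under 0.5 RPKM and 13 were tested. Of the 13, 1 was higher in Lpin1-/- between fasted genotypes (5.63% of all genes), 2 were lower between refed genotypes (4.07%), and 2 rose and 1 fell with refeeding in Lpin1-/- liver (17.8% and 2.92%). Hist1h1e, described below, was the 1 higher, 1 of the 2 lower, and the 1 that fell, so these counts are read no further. Most of these genes give mRNAs without a poly(A) tail, and whether poly(A) RNA was selected is not given in the sources used here. The mRNA end of Hist1h1c, a gene of the histone cluster, was not examined. The same limit may therefore apply to its RPKM and to the linker histone sums. Hist1h1e, a linker histone that shares windows with Hist1h1c, was at 0.801 RPKM in fasted Lpin1-/- and 0.182 RPKM in fasted Lpin1+/+ liver (0.61 ± 0.17, adjusted p = 0.0274 by limma), and this call was lost without fasted Lpin1+/+ replicate 2 or 3. It fell by 0.64 ± 0.17 with refeeding in Lpin1-/- liver (adjusted p = 0.0213 by limma), a call lost without refed Lpin1-/- replicate 2 or 3. Its responses differed by -1.28 ± 0.24 (adjusted p = 0.0316 by limma, 0.0580 with the replicate block), a call lost in 5 of the 10 alternatives that tested it. Hist1h1e averaged 0.155 RPKM in refed Lpin1-/- and 0.871 RPKM in refed Lpin1+/+ liver. Between these refed genotypes Hist1h1e was lower in Lpin1-/- liver (-0.67 ± 0.17, adjusted p = 0.0381 by limma, 0.0614 with the replicate block), a call lost in 6 of 11 alternatives. Hist1h1e therefore met the minimum of 0.5 RPKM only through fasted Lpin1-/- and refed Lpin1+/+ liver, and none of its calls is read further. Hist1h4i was lower in refed Lpin1-/- than in refed Lpin1+/+ liver (-1.55 ± 0.37, adjusted p = 0.0327 by limma) and lost its call without any 1 of the refed libraries. Hist3h2a (0.95 ± 0.22, adjusted p = 0.0125 by limma) and Hist2h2be (0.78 ± 0.22, adjusted p = 0.0270 by limma) rose with refeeding in Lpin1-/- liver, and neither call held without refed Lpin1-/- replicate 2 or 3. The call of Hist2h2be was lost without fasted Lpin1-/- replicate 1 or 2 as well.

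Markers of other liver cells were set beside the rise of H3f3b, Hist1h1c, and H1f0 in fasted Lpin1-/- liver. For 6 of 6 stellate cell markers (those with a value, of those listed) the summed RPKM spanned 72.4 to 165 in fasted Lpin1+/+ and 201.5 to 298 in fasted Lpin1-/- libraries, without overlap. Such a sum is weighted to the most abundant markers. As single genes, 0 of these 6 passed the threshold by limma between fasted genotypes (list median 0.70, all genes -0.14). The sums overlapped for 8 of 8 Kupffer cell markers (188 to 381 and 359.9 to 981), for 5 of 5 sinusoidal endothelial markers (18.6 to 44.0 and 37.8 to 50.7), and for 7 of 7 lymphocyte and neutrophil markers (11.8 to 122 and 51.3 to 175). They also overlapped for 5 of 5 cholangiocyte markers (32.1 to 45.8 and 24.9 to 451), 5 of 5 erythroid markers (575 to 848 and 466 to 1940.4), and 6 of 6 hepatocyte markers (65578 to 76784 and 59924 to 72547). No marker was at 0 in all libraries. Of single markers, Lyve1 of sinusoidal endothelium was higher in fasted Lpin1-/- liver (6.07 and 1.26 RPKM, log2 1.77 ± 0.46, adjusted p = 0.0208 by limma), a call lost without replicate 2 or 3 of either fasted group. Clec4f of Kupffer cells fell by 1.28 ± 0.34 with refeeding in Lpin1-/- liver (adjusted p = 0.0235 by limma), a call lost without fasted Lpin1-/- replicate 1 or refed Lpin1-/- replicate 1 or 3. Fabp1 of hepatocytes was lower in refed Lpin1-/- than in refed Lpin1+/+ liver (-3.04 ± 0.62, adjusted p = 0.0158 by limma), a call lost without refed Lpin1+/+ replicate 1 or 3 or refed Lpin1-/- replicate 1 or 2. The hepatocyte markers as a list went the other way there (list median 0.47, all genes -0.07). Their refed sums overlapped, at 35782 to 72413 RPKM in Lpin1+/+ and 58146 to 63566.5 RPKM in Lpin1-/- libraries. The part of these cells in the histone changes was not tested.

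Patterns over the 12 libraries were compared by Pearson's r of log2(RPKM + 1), as a description, since libraries share their groups and their scaling. Among the 10 genes, the closest pair was H3f3b with Hist1h1c (r = 0.933), followed by H3f3a with H2afj (r = 0.912), both of which were highest in fasted Lpin1-/- replicate 1. Outside them, H3f3b was closest to Zfp956 (r = 0.963) and Vwf (r = 0.959), the von Willebrand factor of endothelium and platelets, which averaged 0.428 RPKM in fasted Lpin1+/+ and 6.49 RPKM in fasted Lpin1-/- liver. Hist1h1c was closest to Zfp472 (r = 0.944) and Wfikkn1 (r = 0.943). H1f0 was closest to Lepr, the leptin receptor (r = 0.965), at 0.403 and 20.8 RPKM in fasted and 0.484 and 26.6 RPKM in refed Lpin1+/+ and Lpin1-/- liver, and to 1700113H08Rik (r = 0.964).

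For H3f3a the closest genes were Phpt1 (r = 0.970) and Pfdn5 (r = 0.970), and for H2afj they were Rps19, a ribosomal protein (r = 0.968), and Hint3 (r = 0.968). H2afy was closest to Trpc4ap (r = 0.988) and Fuk (r = 0.976), and H2afx to Trmt44 (r = 0.953) and Utp18, of the small-subunit processome (r = 0.947). H2afv was closest to Ypel5 (r = 0.929) and Nt5c3 (r = 0.912), H2afz to Ear2 (r = 0.922) and Dyrk3 (r = 0.913), and H1fx to Phldb3 (r = 0.923) and Plce1 (r = 0.880).

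The scaling of the libraries shifted all genes. The median log2 change with refeeding over 11507 genes was 0.19 in Lpin1+/+ and 0.25 in Lpin1-/- liver, and -0.00039 and 0.06 after median-ratio scaling, in which the median gene ratio of a library to the geometric mean of all libraries is set to 1. On that scale 1822 genes passed with refeeding in Lpin1-/- liver, 1256 of them higher, where 2382 passed before, 2046 of them higher. Between fasted genotypes 904 of 2203 were higher where 648 of 2168 had been, between refed genotypes 417 of 728 where 299 of 767 had been, and with refeeding in Lpin1+/+ 31 of 49 where 175 of 198 had been. No histone gene changed sides of the threshold. Only H2afy, H2afj, and Hist1h1c changed sign, in the refeeding comparison of Lpin1+/+ liver, in which they had not passed (0.19 to -0.04, 0.20 to -0.04, and 0.10 to -0.13). H3f3b remained at 2.93 between fasted genotypes, Hist1h1c at 2.73, and H1f0 at 1.36.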

How the data were processed

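Liver RNA of 12 mice, 3 in each of 4 groups set by genotype and feeding in the labels, was sequenced as 69-base read pairs. The authors aligned reads to GRCm38 (Ensembl release 84 annotation) with HISAT2 2.0.5, counted them per gene with HTSeq 0.6.0, and deposited RPKM. rMATS gave inclusion and skipping counts per exon event, which the authors deposited as whole-number counts for 3 libraries in 1 cell, without replicate numbers; its version is not given in the sources used here. The authors' p-values and FDR in the event tables and an enrichment table were not used. The wild-type list in each table was settled by identical counts in a table that shares that group (1523 of 1523 fasted and 1719 of 1719 refed events).

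Genes averaging 0.5 RPKM or more over the libraries (11507) were fitted as log2(RPKM + 1) with limma 3.58.1 (R 4.3.3, trend, 12 libraries in 1 fit), with Benjamini-Hochberg adjustment over all genes and a threshold of 0.05. Fold changes are on that scale and understate those of low genes. RPKM are not counts, so no count model was used. For events, a minimum of 10 counts per library was set, and the fit was on the log2 ratio of length-normalized counts (0.5 added) over the 6 libraries of a feeding state. The depth planned, 150 M reads per sample, is the stated one, and 3 against 3 libraries cannot go below p = 0.1 in an exact permutation test. On simulated data for fasted genotypes, limma recovered 36 of 100 genes changed by 1 and 84 of 100 changed by 2 on the log2 scale among 11507, with 6 false calls, and 763 of 2000 of the 69644 events changed by 3, with 27.

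The histone genes and all lists were chosen with earlier results of these data known. Named genes were the 10 histone genes, Lpin1, up to 2 genes per direction, list, and comparison with the largest change among those past the threshold with groups apart, the 2 genes closest in pattern to each histone gene, and, per histone gene and table, the event with the most counts of its rarer form and those past the threshold. Same-numbered refed libraries deviated together between genotypes (r = 0.186, 0.297, and 0.162), so the block is given there. Promoters are from RefSeq (GRCm38.p6), and gene positions and transcripts from GENCODE M21. Alternatives were another pseudocount, filter, or scaling, a replicate block, only the groups compared, and leaving out each library. Tables and plots were made with pandas 2.3.3 and matplotlib 3.10.9 (Python 3.11.15).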

Additional observations from a re-analysis of the deposited data

Results flagged for a closer look

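The responses of H3f3b and Hist1h1c to refeeding differed between genotypes by the interaction in the limma fit. For H3f3b the response in Lpin1-/- minus that in Lpin1+/+ liver was -2.75 ± 0.26 (log2, SE). For Hist1h1c it was -3.02 ± 0.49. Both genes fell with refeeding in Lpin1-/- liver and did not pass the threshold in Lpin1+/+ liver. These genes were chosen with these values known.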

How the results depend on the processing

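Of 880 recomputed fold changes of the 10 histone genes, 867 moved by less than the spread between replicates, 13 moved further, and no value past the threshold changed sign. The count of histone genes past the threshold between refed genotypes was 2, and it was 1 with a pseudocount of 0.1, without a filter on low values, and with the replicate block, H2afx being the gene lost. It ranged from 1 to 2 when 1 library was left out. In the same way, the count for the interaction ranged from 1 to 2 (Hist1h1c lost) and that for refeeding in Lpin1+/+ from 0 to 1 (H2afv gained without fasted Lpin1+/+ replicate 1). The replicate block changed no other call of the 10 genes. For refeeding in Lpin1+/+ liver, same-numbered libraries deviated together in replicate 1 (r = 0.251) but little or not at all in replicates 2 and 3 (0.083 and -0.016). Between fasted genotypes and for refeeding in Lpin1-/- liver, r was negative in every replicate (-0.474 to -0.204). Among all genes, the fit of only the groups compared passed 1011 between fasted genotypes where 2168 had passed, and 0 with refeeding in Lpin1+/+ where 198 had passed (1151 at an unadjusted p under 0.05); median-ratio scaling passed 49 there and 321 for the interaction, where 147 had passed. The block passed 93 there and 81 for the interaction, and no filter passed 83 for the interaction. Leaving out 1 library moved the counts over all genes to 1040 to 2316 between fasted and 243 to 1048 between refed genotypes, 1119 to 3105 and 23 to 229 with refeeding in Lpin1-/- and Lpin1+/+, and 30 to 176 for the interaction. Over all refed exon events, 633 passed, and 0 to 15 when 1 library was left out. Fasted exon events of the 10 genes that passed numbered 2, 4 with 1 added to each count, 1 with a minimum of 5 counts of the rarer form, and 0 to 6 when 1 library was left out. No paired analysis was run for exon events, since their tables carry no replicate numbers. H1fx drops out at a minimum of 5 RPKM, and at the minimum of 0.5 RPKM without fasted Lpin1-/- replicate 2. Of 25 calls of list genes named in the report, 8 passed under every alternative, and no value changed sign. The cause of these shifts was not tested.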
